A study of Mus musculus with 10 samples.

Results

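The 7 genes described here encode chemokines that draw monocytes and eosinophils out of the blood, together with the main chemokine receptor of inflammatory monocytes. They are Ccl2, Ccl3, Ccl4, Ccl7, Ccl8, Ccl11 and Ccr2. They were chosen by name, with earlier results of these data known. Their probe sets are those whose platform annotation gives 1 of these symbols and no other gene. The 7 genes hold 10 of 45101 probe sets and are 7 of 18193 genes. The tissue was colorectum of C57BL/6J mice, cut about 1 cm from the anus, and each sample was hybridised to 1 Affymetrix array. The irradiated groups were Pdgfc-/- mice (knockout, n = 3) and Pdgfc+/+ mice (wild type, n = 3) exposed locally to 25 Gy of γ-rays (2.14 Gy/min) under chloral hydrate anaesthesia and sampled 8 weeks after exposure. The unirradiated groups were Pdgfc-/- mice (n = 2) and Pdgfc+/+ mice (n = 2). Pdgfc encodes PDGF-C, a secreted growth factor that acts on fibroblasts and other mesenchymal cells through PDGF receptor alpha. The labels call the replicates biological and give no age or sex.

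Chemokines are small secreted proteins that guide leukocytes by binding G protein-coupled receptors on their surface. CCL2 and CCL7 act on CCR2, which inflammatory monocytes need to leave the bone marrow and to enter injured tissue, where many become macrophages. CCL11, known as eotaxin, acts on CCR3 and is needed for the eosinophils that reside in the healthy gut. CCL3 and CCL4 attract monocytes, macrophages and T cells, and CCL3 does so in part through CCR1. Mouse CCL8 is known as an agonist of CCR8, a receptor of some T cells, whereas human CCL8 also acts on CCR2.

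The 6 ligand genes all lie on chromosome 11, where Ccl2, Ccl7, Ccl11, Ccl12 and Ccl8 follow each other in that order among protein-coding genes, and Ccr2 lies on chromosome 9. The sequence table used here held the promoters of 3 of the members, Ccl3, Ccl8 and Ccr2. Those of Ccl8, which differed in most of the comparisons below, and of Ccr2, the receptor, are shown. Each runs from 250 bases before to 50 bases after the annotated start of transcription, on the plus strand of GRCm38.p6, from RefSeq. The Ccl8 window is chr11:82114935-82115234 and the Ccr2 window is chr9:124101933-124102232, and capitals mark a match to TATAAA on either strand.
Ccl8: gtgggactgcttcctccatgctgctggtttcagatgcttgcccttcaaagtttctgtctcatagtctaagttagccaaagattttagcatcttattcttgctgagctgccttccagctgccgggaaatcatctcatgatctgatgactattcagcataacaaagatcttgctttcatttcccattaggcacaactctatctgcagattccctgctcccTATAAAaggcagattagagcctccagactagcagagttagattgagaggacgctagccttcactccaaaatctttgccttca
Ccr2: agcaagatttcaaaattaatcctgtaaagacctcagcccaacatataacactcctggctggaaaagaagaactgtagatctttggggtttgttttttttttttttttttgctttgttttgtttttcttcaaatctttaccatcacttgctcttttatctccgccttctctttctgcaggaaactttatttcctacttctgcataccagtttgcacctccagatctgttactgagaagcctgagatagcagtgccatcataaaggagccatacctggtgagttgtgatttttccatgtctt
The Ccl8 window holds TATAAA from 32 to 27 bases before the start, and 13.6% of 32851 mouse promoter windows of this length hold it on either strand. The Ccr2 window does not hold these letters. Neither window holds GGG and CC spaced by 5 bases, the letters of an NF-kappaB motif, which 50.8% of the promoter windows hold. Nor does either hold TTCNNNGAA for STAT factors (8.3% of windows), TTC and GAA spaced by 4 bases for STAT6 (6.95%), TGANTCA for AP-1 (7.81%), TTGCNNAA for C/EBP (10.8%) or GAAA repeated after 2 bases, an interferon-stimulated element (3.44%), all searched on both strands. A match describes the letters only, and no match says only that these letters are not in this window.

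Values are log2 MAS5 signals, the array maker's summary of probe brightness, and array medians lay between 6.64 and 7.18. Pdgfc, the targeted gene, lay at 6.26 to 7.15 on the irradiated knockout arrays against 8.56 to 8.75 on the irradiated wild type arrays, and at 5.62 to 6.42 on the unirradiated knockout arrays against 7.01 to 7.50 on the unirradiated wild type arrays. Whether its probe set lies in the deleted part was not tested. Xist and Y-linked transcripts showed a female pattern on all 3 irradiated wild type arrays and on irradiated knockout replicate 1, and a male pattern on the other 6 arrays. In wild type, irradiation and this sex pattern therefore cannot be told apart. The 3′ minus 5′ signal of Gapdh, a sign of RNA quality, lay at -0.54 to -0.35 on irradiated arrays and at -0.32 to 0.02 on unirradiated arrays. That of beta-actin overlapped, at 0.44 to 0.58 on irradiated and 0.35 to 0.66 on unirradiated arrays. Of 9 markers of absorptive colonocytes, 8 lay above the array median on every irradiated array and 9 on every unirradiated array. Of 9 markers of stratified squamous epithelium, 9 did so on every irradiated knockout array, 7 on every irradiated wild type array and 1 on every unirradiated array of either genotype. The part of sex pattern, RNA quality and tissue makeup in the results was not tested beyond the values given beside them. In whole tissue, fewer cells of a type and less RNA per cell cannot be told apart.

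The first question was how these genes stood 8 weeks after irradiation in each genotype. Ccl2, Ccl7, Ccl8, Ccl11 and Ccr2 rose in both genotypes, by 4.18-fold to 27.0-fold, and Ccl4 did not pass the test in either. In irradiated knockout against unirradiated knockout tissue, 5 of 6 tested members passed as higher (limma, Benjamini-Hochberg adjusted p under 0.05). Of all genes tested, 14% did. In irradiated wild type against unirradiated wild type tissue, 5 of 6 tested members passed as higher, where 15.8% of all genes tested did. The irradiated and unirradiated arrays did not overlap for 5 of 6 tested members in knockout, where 28.4% of all genes tested were higher without overlap, and for 6 of 6 in wild type, where 30.8% were. Over the 6 members tested, the median difference was 2.84 log2 units in knockout (0.01 over all genes tested) and 2.87 in wild type (0.07). Ccl3 was not tested, since it lay above the array median on 1 array only. Ccl2 and Ccl11 passed this filter on low values through the irradiated arrays alone. The counts include both, and the members were chosen with earlier results known. The shares over all genes are therefore given beside the counts as description only.

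**Figure D1:**
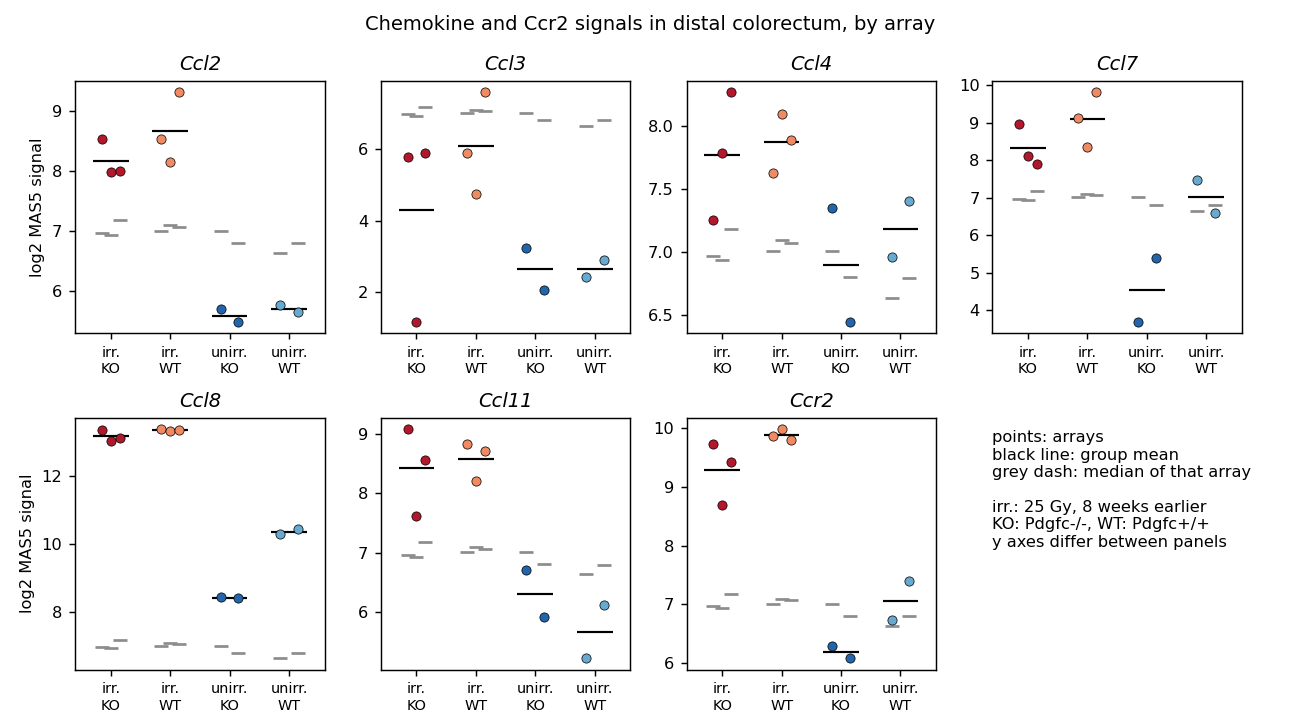
Log2 MAS5 signal (y axis, scaled separately in each panel) of the 7 genes on each array (points), by group (x axis), with black lines for group means and grey dashes for the median of each array. For Ccl2, Ccl7, Ccl8, Ccl11 and Ccr2 every irradiated array lies above every unirradiated array, while Ccl4 spans a narrow range from 6.45 to 8.27 and Ccl3 reaches the array median on 1 array.

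Of the CCR2 ligands, Ccl2 (probe set 1420380_at), which encodes the monocyte chemoattractant MCP-1, had signals of 8.54, 7.99 and 8.0 in irradiated knockout mice and 8.54, 8.15 and 9.32 in irradiated wild type mice, against 5.69 and 5.49 in unirradiated knockout and 5.77 and 5.65 in unirradiated wild type mice. Both unirradiated groups lay together, below the array median, and every irradiated array lay more than 2 log2 units above them. The difference was 2.58 ± 0.36 (SE) in knockout (limma, adjusted p = 0.0013; 1.66 with a pseudocount of 64) and 2.96 ± 0.36 in wild type (adjusted p = 7.6e-04). Among irradiated arrays, wild type replicate 3 was the highest.

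Ccl7 (1421228_at), which encodes MCP-3, a second ligand of CCR2, had signals of 8.96, 8.12 and 7.90 in irradiated knockout and 9.13, 8.35 and 9.80 in irradiated wild type mice, against 3.70 and 5.38 in unirradiated knockout and 7.47 and 6.59 in unirradiated wild type mice. The unirradiated knockout arrays were the lowest and differed from each other by more than 1 log2 unit, well below the array median, where MAS5 signals spread widely. Ccl7 rose by 3.79 ± 0.58 (13.8-fold) in knockout (limma, adjusted p = 0.0022; 2.10 with a pseudocount of 64, which shrinks differences of dim signals) and by 2.06 ± 0.58 (4.18-fold) in wild type (adjusted p = 0.030). The wild type call was lost in 4 of the fits that left out 1 array: without unirradiated wild type replicate 1 (2.50, adjusted p = 0.070) or 2 (1.62, adjusted p = 0.16), and without irradiated wild type replicate 1 (2.04, adjusted p = 0.063) or 3 (1.71, adjusted p = 0.080).

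Ccl8 (1419684_at), which encodes MCP-2, had signals of 13.38, 13.03 and 13.13 in irradiated knockout and 13.39, 13.35 and 13.38 in irradiated wild type mice, against 8.43 and 8.41 in unirradiated knockout and 10.30 and 10.44 in unirradiated wild type mice. The replicates of each group lay within 0.35 log2 units of each other, and the unirradiated knockout arrays were the lowest. Ccl8 rose by 4.76 ± 0.13 (27.0-fold) in knockout (limma, adjusted p = 1.3e-07), the smallest p of the 12568 genes tested, and by 3.0 ± 0.13 (8.0-fold) in wild type (adjusted p = 5.3e-06). The highest signal of any probe set on any array was 15.79, so the irradiated Ccl8 signals lay in the upper part of the scale. Whether the signal was still proportional to RNA there was not tested.

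Ccl11 (1417789_at), the eotaxin gene, had signals of 9.08, 7.62 and 8.56 in irradiated knockout and 8.82, 8.20 and 8.71 in irradiated wild type mice, against 6.70 and 5.92 in unirradiated knockout and 5.22 and 6.12 in unirradiated wild type mice. All irradiated arrays lay above all unirradiated ones, and the unirradiated arrays overlapped between genotypes. The difference was 2.11 ± 0.46 (4.32-fold) in knockout (limma, adjusted p = 0.011) and 2.91 ± 0.46 (7.51-fold) in wild type (adjusted p = 0.0027). Without unirradiated knockout replicate 2, the knockout difference was 1.72 and no longer passed (adjusted p = 0.096).

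Ccl4 (1421578_at), which encodes MIP-1β, had signals of 7.25, 7.79 and 8.27 in irradiated knockout and 7.63, 8.10 and 7.89 in irradiated wild type mice, against 7.35 and 6.45 in unirradiated knockout and 6.96 and 7.41 in unirradiated wild type mice. In knockout the irradiated and unirradiated arrays overlapped, and in wild type they did not, with a gap of 0.22 between the groups. The difference was 0.87 in knockout (95% interval 0.04 to 1.70, adjusted p = 0.12) and 0.69 in wild type (-0.14 to 1.52, adjusted p = 0.21), both by limma. The intervals leave room for a rise of more than 1 log2 unit and, in wild type, for none.

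Ccl3 (1419561_at), which encodes MIP-1α, had signals of 5.79, 1.18 and 5.90 in irradiated knockout and 5.89, 4.75 and 7.58 in irradiated wild type mice, against 3.23 and 2.06 in unirradiated knockout and 2.42 and 2.90 in unirradiated wild type mice. Irradiated wild type replicate 3 alone lay above its array median. The irradiated wild type arrays lay above both unirradiated groups, and irradiated knockout replicate 2 lay below them. With no filter on low values, the differences of 1.65 ± 1.37 in knockout and 3.41 ± 1.37 in wild type did not pass (limma, adjusted p = 0.49 and 0.13).

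Ccr2, the receptor, was measured by 4 probe sets, and its brightest, 1421186_at, represented the gene. It had signals of 9.73, 8.70 and 9.43 in irradiated knockout and 9.88, 9.99 and 9.79 in irradiated wild type mice, against 6.29 and 6.08 in unirradiated knockout and 6.73 and 7.39 in unirradiated wild type mice. The irradiated wild type arrays lay close together at the top, and the unirradiated knockout arrays were the lowest and below the array median. The difference was 3.10 ± 0.30 (8.58-fold) in knockout (limma, adjusted p = 2.7e-04) and 2.82 ± 0.30 (7.07-fold) in wild type (adjusted p = 5.3e-04).

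The other Ccr2 probe sets did not all show the same. Probe set 1421187_at had 8.46, 7.32 and 8.53 in irradiated knockout and 8.84, 9.17 and 8.75 in irradiated wild type mice, against 1.80 and 4.09 in unirradiated knockout and 5.05 and 5.61 in unirradiated wild type mice. It rose by 5.16 ± 0.62 in knockout and by 3.59 ± 0.62 in wild type, in the limma fit of every probe set (adjusted p = 6.3e-04 and 0.0042). Probe set 1421188_at rose by 2.09 ± 0.52 in knockout (adjusted p = 0.021) and differed by 0.94 ± 0.52 in wild type, which did not pass (adjusted p = 0.24). Both 1421187_at and 1421188_at passed the filter on low values through irradiated arrays alone. The fourth probe set, 1460067_at, lay below the median on all arrays, between 3.78 and 7.03, and was not tested.

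**Figure D2:**
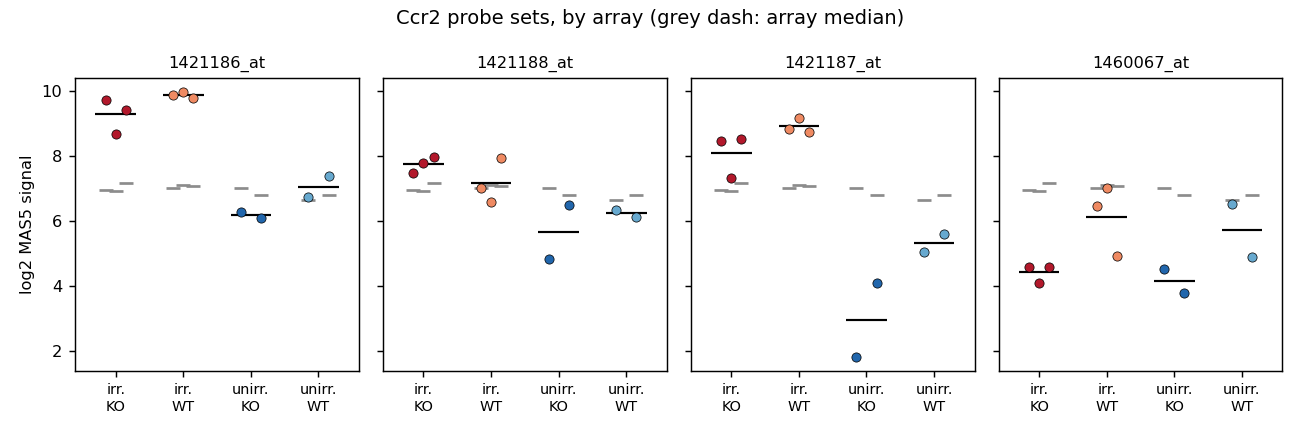
Log2 MAS5 signal (y axis) of the 4 Ccr2 probe sets on each array (points), by group (x axis), with lines for group means. Irradiated arrays stand above unirradiated ones for 1421186_at, 1421187_at and 1421188_at in both genotypes, for 1421188_at in wild type by a gap of 0.23. Probe set 1460067_at stays below every array median.

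**Figure D3:**
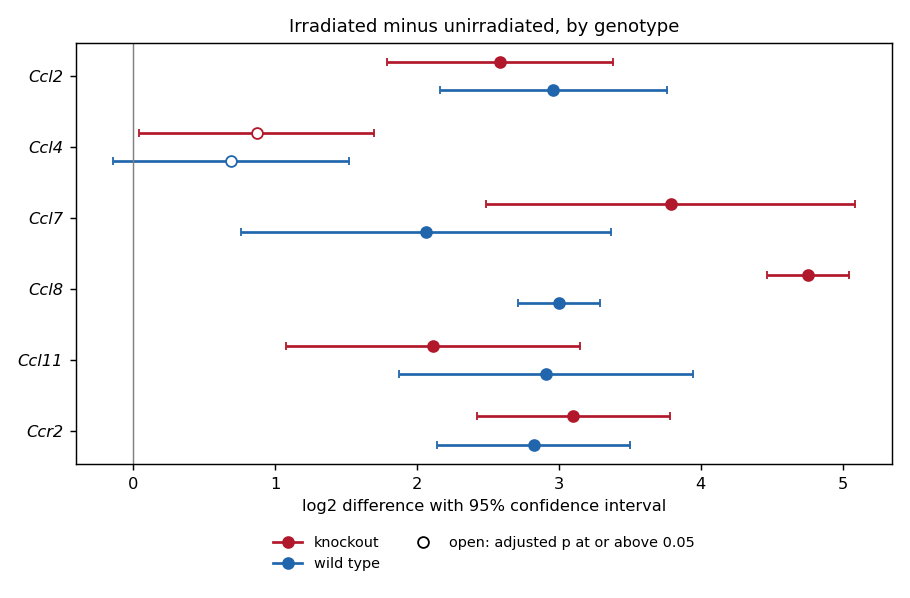
Irradiated minus unirradiated log2 signal (x axis) with 95% confidence intervals for the 6 members tested, in knockout (red) and wild type (blue), with filled symbols past an adjusted p of 0.05. Ccl8 stands at 4.76 in knockout and 3.0 in wild type, with intervals that do not overlap, and Ccl4 has open symbols in both.

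Irradiated knockout replicate 1, the array of that group with a female pattern, was the highest of its group for 5 of 7 members, and replicate 2 was the lowest for 5. Without replicate 1, all 4 remaining knockout arrays had a male pattern, and the irradiation differences in knockout were 4.66 for Ccl8, 3.47 for Ccl7, 2.88 for Ccr2, 2.40 for Ccl2 and 1.78 for Ccl11, with 5 of 6 tested members still past the limma test. With the sex pattern as a covariate, the wild type differences were 2.70 for Ccl8 (adjusted p = 0.0018), 2.42 for Ccl2 (adjusted p = 0.13), 2.15 for Ccr2 (adjusted p = 0.11), 1.92 for Ccl11 (adjusted p = 0.32) and 1.11 for Ccl7 (adjusted p = 0.71). Ccl8 alone of the members then passed in wild type, as did 16 of all genes tested, against 3028 without the covariate. The size of the covariate came from irradiated knockout alone, as replicate 1 against the rest of that group, since no other group held both patterns. These values therefore do not separate sex pattern from irradiation within wild type.

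The second question was whether mice without Pdgfc differed from wild type in the unirradiated tissue. Ccl8 was 3.87-fold lower in unirradiated knockout mice, at 8.42 ± 0.016 against 10.37 ± 0.099 in unirradiated wild type mice (SD, n = 2 each). The difference was -1.95 ± 0.14 (SE; 95% interval -2.27 to -1.63, limma adjusted p = 3.3e-04), the third smallest p of all genes tested. Ccl8 was the 1 of 6 tested members that passed, where 0.804% of all genes tested passed as lower.

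Ccl7 averaged 4.54 ± 1.19 in unirradiated knockout and 7.03 ± 0.62 in unirradiated wild type mice, a difference of -2.49 ± 0.64 that did not pass (limma, adjusted p = 0.096). Ccr2 averaged 6.19 ± 0.15 in unirradiated knockout and 7.06 ± 0.47 in unirradiated wild type mice, a difference of -0.88 ± 0.33 that did not pass (adjusted p = 0.23). For both genes the knockout arrays lay below the wild type arrays, which was so for 18.9% of all genes tested. Probe set 1421187_at of Ccr2 differed by -2.39 ± 0.68, also short of the threshold (adjusted p = 0.13). At an unadjusted p under 0.05 stood 3 of 6 members, Ccl8, Ccl7 and Ccr2, where 16.6% of all genes tested did.

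For the other members the intervals of the difference spanned 0. They ran from -0.99 to 0.76 for Ccl2, from -1.20 to 0.62 for Ccl4 and from -0.50 to 1.77 for Ccl11, whose mean of 6.31 ± 0.56 in unirradiated knockout was above the 5.67 ± 0.63 in unirradiated wild type mice (SD, n = 2 each). All 4 unirradiated arrays had the male pattern. Other cell markers moved with this comparison. The mean of 8 T and NK cell markers lay at 4.77 to 4.98 on unirradiated knockout and 5.70 to 5.72 on unirradiated wild type arrays, with 1 of 8 above the median on every knockout array and 2 of 8 on every wild type array. The mean of 6 striated muscle markers lay at 7.98 to 8.56 on unirradiated knockout and 3.37 to 3.38 on unirradiated wild type arrays, with 4 of 6 above the median on every knockout array and 1 of 6 on every wild type array. None of these markers passed singly, and their part in the Ccl8 difference was not tested.

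The third question was whether the genotypes differed after irradiation. None of the 6 tested members passed the limma test, nor did any of all genes tested (0%), and at an unadjusted p under 0.05 stood 0 of 6 members and 3.98% of all genes tested. Ccl8 averaged 13.18 ± 0.18 in irradiated knockout and 13.37 ± 0.021 in irradiated wild type mice (SD, n = 3 each), with overlapping arrays and a difference of -0.19 (95% interval -0.45 to 0.07). The interval leaves out a difference as large as the one without irradiation. Ccr2 averaged 9.29 ± 0.53 in irradiated knockout and 9.89 ± 0.096 in irradiated wild type mice, a difference of -0.60 (-1.21 to 0.01, unadjusted p = 0.054). Its 3 knockout arrays lay below its 3 wild type arrays by a gap of 0.06, which 4.04% of all genes tested did by any gap. Probe set 1421187_at of Ccr2 also lay lower on every irradiated knockout array, by a gap of 0.23. Its difference was -0.82 (-2.05 to 0.41) and did not pass. Probe set 1421188_at stood the other way, at 7.75 ± 0.24 in irradiated knockout and 7.18 ± 0.69 in irradiated wild type mice (SD, n = 3 each). Its arrays overlapped, with a difference of 0.56 (-0.47 to 1.60).

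The remaining differences after irradiation were -0.49 for Ccl2 (-1.21 to 0.22), -0.76 for Ccl7 (-1.93 to 0.40), -0.16 for Ccl11 (-1.09 to 0.77) and -0.10 for Ccl4 (-0.85 to 0.64). None passed, and the intervals of Ccl2, Ccl7 and Ccl11 leave room for a signal lower by 1 log2 unit in knockout mice. The sex pattern differed between these groups, female on 1 of 3 irradiated knockout arrays and on 3 of 3 irradiated wild type arrays. No other group held both patterns, so with the pattern as a covariate its size came from irradiated knockout alone. That fit thus sets irradiated knockout replicate 1 against the 3 irradiated wild type arrays. The difference was then 0.0034 for Ccl8 (-0.33 to 0.33), -0.15 for Ccr2 (-0.94 to 0.64) and 0.50 for Ccl11. It was -0.13 for both Ccl2 and Ccl7 and -0.62 for Ccl4, and none passed.

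The difference between the irradiation effects was then tested directly. The irradiation difference of Ccl8 was 1.76 ± 0.18 log2 units (3.38-fold) larger in knockout than in wild type mice (95% interval 1.35 to 2.17, limma adjusted p = 0.0076), the fifth smallest p of all genes tested. It was the 1 of 6 tested members that passed, where 0.207% of all genes tested did. The genotypes had nearly the same Ccl8 signal after irradiation, so the difference of the effects mirrors the lower signal in unirradiated knockout mice, and both comparisons share these arrays. With the replicate number as a block the size was the same, and the test was missed (adjusted p = 0.067). The wild type effect in this difference cannot be told apart from the sex pattern. Whether the irradiated Ccl8 signals were still proportional to RNA was not tested. Leaving out any 1 array kept the call.

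For Ccl7 the effect was 1.72 ± 0.82 larger in knockout, which did not pass (limma, adjusted p = 0.51). The intervals of the difference between effects ran from -1.51 to 0.75 for Ccl2, from -0.99 to 1.36 for Ccl4, from -2.26 to 0.67 for Ccl11 and from -0.69 to 1.24 for Ccr2. All of these span 0.

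**Figure D4:**
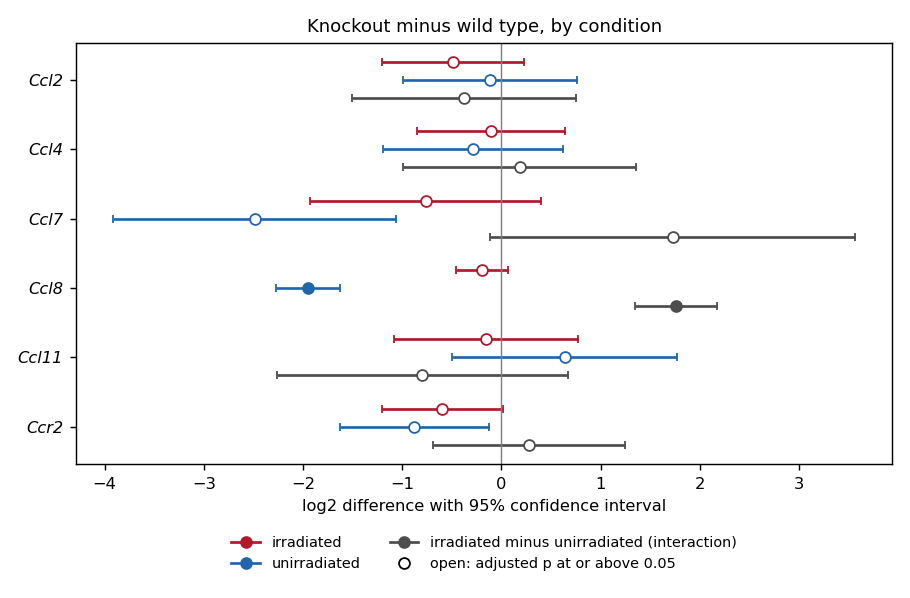
Knockout minus wild type log2 signal (x axis) with 95% confidence intervals after irradiation (red), without irradiation (blue) and the difference between these (grey), for the 6 members tested, with filled symbols past an adjusted p of 0.05. The filled symbols are those of Ccl8, at -1.95 without irradiation and 1.76 for the difference of effects.

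The other ligands and receptors of these pathways were listed as 14 genes, of which 12 were named on the array and 9 were tested. Of all genes tested, 14% passed as higher with irradiation in knockout and 15.8% in wild type. In irradiated knockout against unirradiated knockout tissue, 7 of the 9 rose and 0 fell, with a median of 2.14. Among them were Ccr1, a receptor of CCL3 (2.46 ± 0.25, limma adjusted p = 3.1e-04), Ccl12, the mouse chemokine MCP-5 that acts on CCR2 (4.78 ± 0.62, adjusted p = 9.7e-04), Ccl5, which encodes RANTES (4.90 ± 0.73, adjusted p = 0.0019), and Ccl9, a CCR1 ligand of mice (2.14 ± 0.36, adjusted p = 0.0036). In irradiated wild type against unirradiated wild type tissue, 5 of the 9 rose and 0 fell, with a median of 1.83. The 4 of these with the smallest p were Ccr1 (2.07 ± 0.25, adjusted p = 7.6e-04), Ccl9 (2.18 ± 0.36, adjusted p = 0.0033), Ccl12 (2.69 ± 0.62, adjusted p = 0.014) and Ackr1, a decoy receptor of venular endothelium and red cells (1.29 ± 0.33, adjusted p = 0.021). The count in wild type was 3 without unirradiated wild type replicate 1, 3 without irradiated wild type replicate 2 and 0 with the sex covariate.

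Ccl5 was the 1 gene of this list that passed between unirradiated genotypes. Its signals were 2.72 and 4.55 in unirradiated knockout mice, against 7.86 and 8.32 in unirradiated wild type mice. The difference was -4.45 ± 0.80 (limma, adjusted p = 0.033), and it no longer passed whichever of the 4 unirradiated arrays was left out, or without irradiated knockout replicate 3 (adjusted p = 0.053 to 0.16). It was also lost with a pseudocount of 16 (-3.27, adjusted p = 0.062) or 64 (-2.10, adjusted p = 0.15), without the variance trend (adjusted p = 0.059), with the replicate block (adjusted p = 0.078) and with the sex covariate (adjusted p = 0.051). Ccl12, the neighbour of Ccl8 on chromosome 11, averaged 3.32 ± 0.58 in unirradiated knockout and 6.57 ± 0.86 in unirradiated wild type mice, a difference of -3.25 ± 0.68 that did not pass (adjusted p = 0.057).

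No gene of this list passed between irradiated genotypes, where Ccl9 (-0.89, unadjusted p = 0.022) and Ccl5 (-1.68, unadjusted p = 0.028) had the smallest p, and none passed for the difference of effects. Ccr3, the receptor of CCL11 on eosinophils, lay below the median of every array, at 4.79 ± 1.92 in irradiated knockout and 4.52 ± 1.54 in irradiated wild type mice (SD, n = 3 each) and at 1.35 in unirradiated knockout and 1.14 in unirradiated wild type mice. Ccr8 averaged 2.38 in irradiated knockout, 2.49 in irradiated wild type, 2.62 in unirradiated knockout and 2.62 in unirradiated wild type mice. Both failed the filter on low values.

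Markers of the cells that these chemokines act on moved with irradiation too, beside 14% of all genes tested that passed as higher in knockout and 15.8% in wild type. The mean of 14 macrophage markers was 10.43 ± 0.30 on irradiated knockout and 10.93 ± 0.074 on irradiated wild type arrays (SD, n = 3 each), against 7.65 ± 0.36 on unirradiated knockout and 8.41 ± 0.051 on unirradiated wild type arrays (SD, n = 2 each), with no overlap between any groups. Of these markers, 12 rose and 1, Mertk, fell in knockout, and 12 rose in wild type, where the count was 1 with the sex covariate. Between genotypes none passed, without irradiation or after it. In number, 13 of 14 lay above the median on every irradiated knockout array, 14 on every irradiated wild type array, 8 on every unirradiated knockout array and 10 on every unirradiated wild type array.

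The mean of 5 monocyte markers lay at 10.54 to 10.99 on irradiated knockout and 11.03 to 11.23 on irradiated wild type arrays, against 8.50 to 9.01 on unirradiated knockout and 8.67 to 9.79 on unirradiated wild type arrays. Of these, 3 rose in knockout and 4 in wild type. The wild type count was 1 without unirradiated wild type replicate 1, 2 without irradiated wild type replicate 1 and 0 with the sex covariate. The order of the group means was the same as for Ccr2. Macrophage, neutrophil, T and NK cell and fibroblast markers shared this order, and mast cell, endothelial and eosinophil markers did not. Between genotypes no monocyte marker passed. The part of these cells in the chemokine differences was not tested.

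Of 6 eosinophil markers named on the array, Epx, Prg3, Siglecf and Il5ra, which define the cell type, lay below the median of every array. The mean of the 6 lay at 5.48 to 6.09 on irradiated knockout and 5.46 to 5.83 on irradiated wild type arrays, against 4.40 to 4.78 on unirradiated knockout and 4.37 to 4.68 on unirradiated wild type arrays. Epx averaged 4.89 ± 0.50 in irradiated knockout and 3.27 ± 1.55 in irradiated wild type mice (SD, n = 3 each), against 5.27 ± 0.90 in unirradiated knockout and 2.85 ± 0.27 in unirradiated wild type mice (SD, n = 2 each). Prg3 averaged 1.54 ± 0.25 in irradiated knockout and 2.50 ± 0.69 in irradiated wild type mice, against 2.52 ± 0.34 in unirradiated knockout and 1.18 ± 0.38 in unirradiated wild type mice. Both thus had lower means in irradiated than in unirradiated knockout mice and higher means in irradiated than in unirradiated wild type mice, at signals too low to be tested. The mean of all 6 markers went the other way in knockout mice, at 5.80 with irradiation against 4.59 without. Siglecf and Il5ra are not given singly, so Epx and Prg3 do not stand for the list. Prg2, which encodes major basic protein and passed the filter on low values through 3 irradiated arrays alone, rose by 4.29 ± 0.83 in knockout (limma, adjusted p = 0.0063) and differed by 2.22 in wild type (adjusted p = 0.078). The knockout call was lost without unirradiated knockout replicate 2 (3.92, adjusted p = 0.051). The rise of Ccl11 thus stood beside eosinophil markers that were mostly at low signal.

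**Figure D5:**
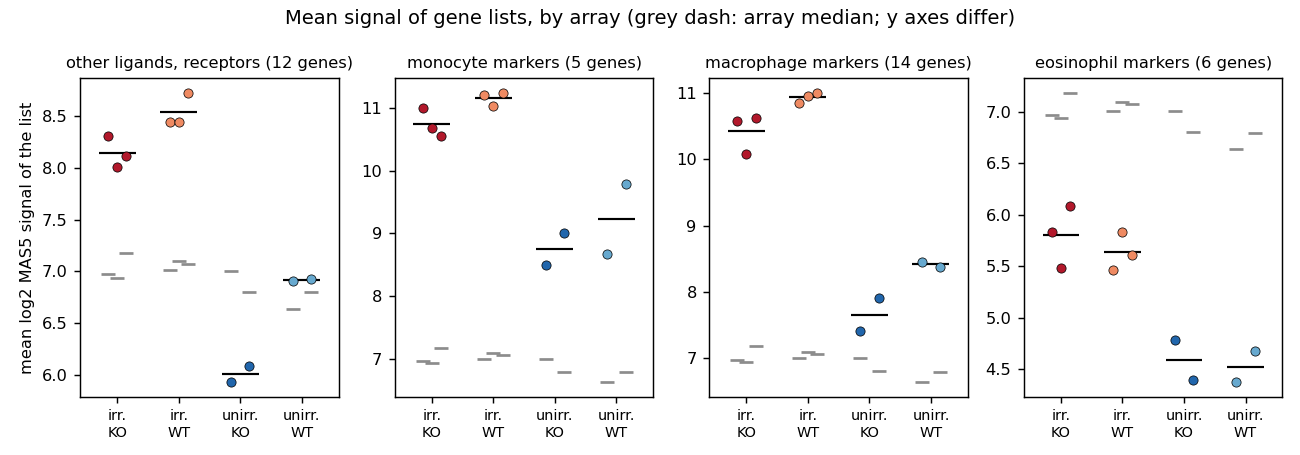
Mean log2 MAS5 signal (y axis, scaled separately in each panel) of the other ligands and receptors and of monocyte, macrophage and eosinophil markers on each array (points), by group (x axis), with black lines for group means and grey dashes for array medians. All 4 lists lie higher on irradiated arrays within each genotype, and the eosinophil markers stay below the array median throughout.

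Among the members, the patterns over the 10 arrays were closest for Ccl2 and Ccr2. Likeness was measured as the root mean square difference between the log2 signals of 2 genes after each gene's own mean was subtracted, over 10 arrays that all share the irradiation difference. It was 0.47 for Ccl2 and Ccr2, 0.51 for Ccl2 and Ccl11 and 1.77 for Ccl3 and Ccl4, the least alike pair of the members. Among the 12144 genes tested that had an official-style symbol, Ccr2 was most like Ms4a6d (0.16) and Clec10a (0.20), both expressed by macrophages, and Ccl2 was most like Folr2 (0.30), the macrophage folate receptor, and Serping1 (0.31), an inhibitor of complement C1.

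Ccl8, which differed between unirradiated genotypes, was most like Nfil3 (0.37), a transcription factor of lymphocytes, and Lcn2 (0.39), an iron-binding protein of neutrophils and inflamed epithelium. Nfil3 averaged 8.27 in irradiated knockout and 8.63 in irradiated wild type mice, against 4.32 in unirradiated knockout and 6.04 in unirradiated wild type mice. Ccl11 was most like Tmem184c (0.33) and Cldn5 (0.33), a tight junction gene of endothelium. Ccl7 was most like Cd247 (0.52), the T cell receptor zeta chain, and Morrbid (0.54), a long non-coding RNA of short-lived myeloid cells. Ccl4 was most like C2 (0.22), a complement gene, and Snhg11 (0.23), and Ccl3 was most like Izumo1r (0.74) and Prkcq (0.84), a kinase of T cells. Likeness so measured depends on the size of the signal differences between arrays, not on their order alone, and is given with no test. The root mean square of a member's own signal, after its mean was subtracted, was 0.52 for Ccl4 and 1.99 for Ccl3. A small value for Ccl4 therefore shows less than the same value for a member that varied more.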

How the data were processed

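Total RNA was measured on 10 Affymetrix arrays. The authors computed signals with MAS5, per the submitters' processing notes, which name no version. The deposited signals were read as log2 values, because unlogged they had a 2% trimmed mean of 500 on each array. They ran from -4.24 to 15.79 and were used as deposited, without detection calls. The number of arrays limits the precision.

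For 34754 probe sets, platform symbols were brought up to date through gene IDs and a GRCm38.p6 table. Each gene was represented by its brightest probe set with 1 gene (18193 genes) and tested if it exceeded the array median on 2 or more arrays (12568). The test was limma 3.58.1 (R 4.3.3) over 4 group means, with 6 residual degrees of freedom, trended eBayes variances and Benjamini-Hochberg adjustment over all genes tested at 0.05; the fit was tested on simulated data. Differences are irradiated minus unirradiated, or knockout minus wild type.

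The members, the lists of other ligands, receptors and cell type markers, and the tests were chosen with earlier results of these data known. Named were the members, up to 4 genes of the other ligands and receptors by smallest p (2 where none passed), Ccr1 and Ccr3, and the 2 genes most like each member. Alternatives were quantile normalization, pseudocounts of 16 and 64, other filters and probe set rules, no trend, fits of only the groups compared, the replicate block, the sex pattern as a covariate and leaving out each array.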

Additional observations from a re-analysis of the deposited data

Results flagged for a closer look

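The irradiation effect on Ccl8 differed between the genotypes by a test of the difference itself. It was 1.76 ± 0.18 log2 units larger in knockout than in wild type mice (limma, adjusted p = 0.0076; 1.58 to 1.95 under the alternatives, adjusted p 0.0064 to 0.067). Irradiated arrays of both genotypes overlapped, at 13.03 to 13.38 in knockout and 13.35 to 13.39 in wild type mice. Both unirradiated knockout arrays, at 8.43 and 8.41, lay below both unirradiated wild type arrays, at 10.30 and 10.44. Whether the irradiated signals were still proportional to RNA was not tested. In wild type, the irradiation effect cannot be told apart from the sex pattern.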

How the results depend on the processing

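The values of the 6 tested members were recomputed under each alternative, 634 values in all. Of these, 621 kept their direction and their side of the threshold where they were called, or stayed uncalled, 13 were no longer past the threshold, and none of the called values turned sign, while 13 uncalled ones did. With the sex pattern as a covariate, 1 member passed for irradiation in wild type instead of 5, and 16 of all genes tested instead of 3028. The size of that covariate came from irradiated knockout alone, the 1 group that held both patterns. Over 13 pairs of arrays with the same replicate number, the deviations from group means correlated at -0.20 to 0.16. Over 24 pairs with other numbers, they correlated at -0.25 to 0.24. In groups of 2 arrays the deviations mirror each other, so these values cannot decide whether the numbers pair the arrays. With the replicate block, 0 members passed for the difference of effects instead of 1 (Ccl8, 1.76, adjusted p = 0.067), and Ccl7 missed the threshold in wild type (1.99, adjusted p = 0.085), as it did under quantile normalization (1.81, adjusted p = 0.072). Leaving out 1 array gave 4 to 5 members for irradiation in each genotype, 1 for genotype without irradiation, 0 after irradiation and 1 for the difference of effects. Over all genes tested, the counts ranged over the alternatives with 1 value per gene from 16 to 3469 for irradiation in wild type, 1189 to 3596 in knockout (2957 in the fit reported), 41 to 255 for genotype without irradiation (154), 0 to 3 after irradiation (0) and 3 to 35 for the difference of effects (26). Of 25883 probe sets fitted singly, 4870, 5148, 276, 0 and 49 passed in these comparisons. A group left with 1 array took its spread from the rest. Signals below the array median, as for Ccl3 on 9 arrays and Ccl7 in unirradiated knockout mice, limit what their differences show.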

Other observations

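Cytokines and factors known to induce these chemokines were listed as 22 genes, of which 15 were tested. Over all genes tested, 14% passed as higher with irradiation in knockout and 15.8% in wild type. In irradiated knockout against unirradiated knockout tissue, 7 rose, among them Il1b (3.64), Tnf (2.88 ± 0.51, limma adjusted p = 0.0042) and Csf1 (1.62), the macrophage growth factor, and 2 fell, Relb (-0.72) and Ifngr1 (-0.55). In irradiated wild type against unirradiated wild type tissue, 5 rose, Il33 (6.86), Il6 (5.05), Il1b (3.96), Il1r1 (2.61) and Csf1 (1.22), and Ifngr1 fell (-0.60). Il6 passed the filter on low values through 2 irradiated wild type arrays alone. The counts of genes that passed in either direction were 4 in knockout without unirradiated knockout replicate 1, 4 without replicate 2 and 5 without irradiated knockout replicate 1, and 0 in wild type with the sex covariate. Tnf differed by 0.30 in wild type (adjusted p = 0.70), and no gene of the list passed for the difference of effects.

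Between unirradiated genotypes Tnfrsf1a, a TNF receptor, was the 1 gene of the list that passed, as lower in knockout (-0.88, limma adjusted p = 0.045), and it lost its call in 8 of the 10 fits that left out 1 array. No gene of the list passed between irradiated genotypes. These genes were named after their values were seen.

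Markers of other cells also moved with irradiation. Over all 12568 genes tested, 14% passed as higher in knockout and 15.8% in wild type, and 1194 and 1048 passed as lower. Of 7 mast cell markers tested, 6 rose in each genotype, and 1, Kit, fell in knockout. Of 9 fibroblast markers, 7 rose in knockout and 9 in wild type. Of 6 T and NK cell markers, 5 rose in knockout and 4 in wild type, and of 4 neutrophil markers 2 rose in knockout and 4 in wild type. Of 6 endothelial markers, 5 rose in each genotype. Of 9 markers of absorptive colonocytes, 6 fell in knockout and 7 in wild type. Stratified squamous epithelium had 9 of 9 markers that rose in knockout (median 6.53) and 6 of 9 in wild type (median 6.09). Of 6 markers of striated muscle, 2 rose in knockout and 6 in wild type, and of 5 of smooth muscle none passed in either. Between genotypes no marker of these cells passed singly, without irradiation or after it. Over the markers tested, the median difference between unirradiated knockout and unirradiated wild type mice was 4.55 for striated muscle and -1.75 for T and NK cells.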
